A study of Mus musculus with 4 samples.

Results

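The adenylate kinase genes described here are Ak1, Ak3, Ak4, Ak5, Ak6, Ak7, Ak8, Ak9 and the pseudogene Ak3l2-ps, which are 9 of the 54752 genes in the files. The members were taken by name, and the family was chosen because Ak4 lay far lower in MEK1/2-deficient cells than in controls, so the family was selected on the Ak4 counts in this comparison. The genotype difference of Ak4 and of its pseudogene is therefore a description and carries no test. The RNA came from splenic naïve CD4+ T cells that were cultured for 3 days toward the T follicular helper (Tfh) fate, the CD4+ subset that helps B cells, and then sorted for viability. The culture used plate-bound anti-CD3, anti-CD28, IL-6 and blocking antibodies to TGF-β, IL-4, IFN-γ and IL-2, in both genotypes. One genotype was WT and the other Mek1/2-tKO (Cd4-Cre+, fl/fl for Map2k1 and also for Map2k2), with 2 libraries each. Cd4-Cre acts from the thymus onward in cells that express or have expressed Cd4, so the deletion preceded the culture and is not limited to Tfh cells. The sources used here give an age only for purchased C57BL/6J mice and none for the floxed lines, and do not say whether a library pooled several animals.

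Adenylate kinases move a phosphate between adenine nucleotides, turning a pair of ADP molecules into ATP and AMP and back, and so set the level of AMP that cells read as a sign of low energy. The isoforms work in different places, with AK1 in the cytosol, AK3 and AK4 in the mitochondrial matrix, and AK7 and AK8 in cilia and flagella. Ak4 is a known target of the hypoxia-inducible factor HIF-1, a transcription factor that also drives glycolytic genes in activated T cells.

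The library totals were 16330802 to 18931090 counts, and 14330 genes had enough counts to be tested with edgeR's quasi-likelihood test. Calls needed a change of 1.5-fold or more and a Benjamini-Hochberg adjusted p below 0.05. Map2k1, a targeted gene, had 181.7 and 187.3 CPM (counts per 1000000 reads after TMM scaling) in WT against 98.0 and 105 CPM in Mek1/2-tKO (log2 fold change -0.86, standard error 0.08, adjusted p = 1.29e-06 in edgeR). Map2k2, the other targeted gene, was not called (log2 fold change 0.15, standard error 0.08, adjusted p = 0.126 in edgeR). Counts over a whole gene also take in transcripts that lack the floxed exons. What part such transcripts, or cells without the deletion, had in the values of the targeted genes was not tested. Cd4, the gene behind the CD4+ label, had 5788 and 5581 counts in WT but only 291 and 472 counts in Mek1/2-tKO (log2 fold change -3.73). The summed level of 13 T-cell markers was 3410 and 3422 CPM in WT against 2894 and 2719 CPM in Mek1/2-tKO, with 7 of the 13 called lower and 1, Thy1, called higher. The summed level of 20 B-lineage markers was 2035 and 1991 CPM in WT against 10251 and 10020 CPM in Mek1/2-tKO, with 18 of the 20 called higher and 1 called lower. Markers of other cells were also higher in sum in both Mek1/2-tKO libraries, at 769 and 700.4 CPM against 123 and 121 CPM for 12 NK-cell genes, 80.2 and 78.0 CPM against 2.87 and 2.18 CPM for the 4 matched γδ T-cell genes, 238 and 214 CPM against 67.4 and 59.3 CPM for the CD8 genes, and 247 and 259 CPM against 60.2 and 51.7 CPM for 10 myeloid genes. Most of the NK-cell sum was Nkg7, at 436 and 405 CPM in Mek1/2-tKO against 62.8 and 65.1 CPM in WT. Of the 12 NK-cell genes, 11 were called higher and 1, Itga2, was called lower. Most of the myeloid sum was Mpeg1, at 220 and 239 CPM in Mek1/2-tKO against 55.9 and 47.0 CPM in WT. All 7 tested myeloid genes were called higher, and Csf1r, Itgam and Fcgr1 were not tested. Bulk RNA cannot tell fewer cells of a type from less RNA per cell, and the part of this difference in cell markers in the results that follow was not tested. Nothing in the sources says whether the 2 libraries of a genotype came from separate mice, so the p-values measure the spread between these libraries, and the smallest two-sided p of an exact permutation test of 2 against 2 is 0.333.

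Ak4, the mitochondrial matrix isoform (ENSMUSG00000028527.18, plus strand, GRCm38 chr4:101419277-101466995), was counted 1388 and 1426 times in the WT libraries and 26 and 50 times in the Mek1/2-tKO libraries. In CPM these were 71.2 and 74.0 against 1.68 and 2.66. The genotypes did not overlap, and the values lay close together in WT and farther apart in Mek1/2-tKO. The WT mean was 72.6 ± 1.93 CPM, the Mek1/2-tKO mean was 2.17 ± 0.695 CPM (SD, n = 2 each), and the fitted log2 fold change was -5.03 (standard error 0.17), a 32.8-fold lower level. Among the 9606 tested genes that averaged 3 or more on the log2 CPM scale, no gene had a lower log2 fold change. The next were Tgm2 at -4.43, Ak3l2-ps at -4.33 and Ptgfrn at -4.06. The family was chosen for the size of the Ak4 fall, so this place of Ak4 restates that choice and is no separate result. Among all 14330 tested genes, low counts included, Ak4 ranked 20 and Ak3l2-ps ranked 28 from the most negative log2 fold change.

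Ak3l2-ps (ENSMUSG00000081957.5, plus strand, GRCm38 chr2:72633936-72634607) is a processed pseudogene, a copy of a spliced transcript put back into the genome, with 1 exon and no introns. It was counted 336 and 328 times in WT and 13 and 16 times in Mek1/2-tKO, or 17.2 and 17.0 CPM against 0.840 and 0.852 CPM. The genotypes did not overlap, and the replicates of each were nearly equal. The means were 17.1 ± 0.163 CPM and 0.846 ± 0.00874 CPM (SD, n = 2 each), and the fitted log2 fold change was -4.33 (standard error 0.26), a 20.1-fold lower level.

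The annotated sequences of the 2 loci were compared because reads of one can be counted on the other. The 672 bases of Ak3l2-ps lined up with the whole Ak4 coding sequence, stop codon included, with 669 identical bases (99.6% identity). The 3 differences were G36A, A285G and G378A, where positions count from 1 at the first base of the Ak4 start codon and the Ak4 base is written first. They are shown on both loci, on the plus strand of GRCm38, with the differing base in capitals. Within an unspliced read of this stretch only these bases separate the loci, and the mate of its read pair was not considered.
Ak4 at G36A, chr4:101419842-101419870: gcggtcatcctcggGccgcccggctctgg
Ak3l2-ps at G36A, chr2:72633957-72633985: gcggtcatcctcggAccgcccggctctgg
Ak4 at A285G, chr4:101460505-101460533: ccgaggacattagtAcaggcagaagccct
Ak3l2-ps at A285G, chr2:72634206-72634234: ccgaggacattagtGcaggcagaagccct
Ak4 at G378A, chr4:101460598-101460626: cgtctgagccgacgGtggattcacccttc
Ak3l2-ps at G378A, chr2:72634299-72634327: cgtctgagccgacgAtggattcacccttc

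Of the 523 windows of 150 bases, the length of a read, that can be laid on this stretch, 244 (46.7%) held none of the 3 differing bases. All 244 crossed at least 1 of the 4 Ak4 exon junctions, which follow bases 145, 265, 438 and 557, so a read in them is spliced on chromosome 4 and unbroken on chromosome 2. The aligned stretch made up 16.1% of the 4186-base Ak4 transcript, and the rest of that transcript has no counterpart in the annotated Ak3l2-ps. The bases around the annotated Ak3l2-ps were not searched. Only uniquely mapped reads were counted, and how the mapper placed reads from this stretch was not tested.

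**Figure D1:**
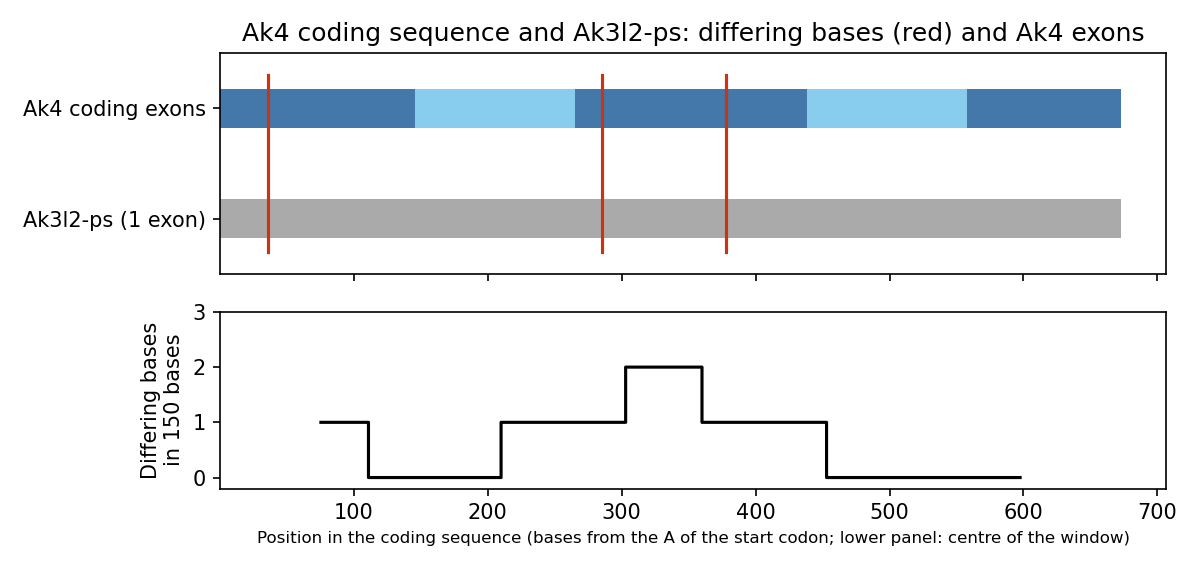
The upper panel shows the 5 Ak4 coding exons (alternating blue) and the single exon of Ak3l2-ps (grey) along the coding sequence in bases from the start codon, with red lines at the 3 differing bases. The lower panel gives the number of differing bases in each window of 150 bases by the window's centre, with 0 in 2 stretches that together hold 244 of the 523 windows.

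Ak3l2-ps took a share of the summed Ak4 and Ak3l2-ps reads of 19.5% (Clopper-Pearson 95% interval 17.6 to 21.4%) and 18.7% (16.9 to 20.6%) in the WT libraries. The share was 33.3% (19.1 to 50.2%, 13 of 39 reads) and 24.2% (14.5 to 36.4%, 16 of 66 reads) in the Mek1/2-tKO libraries. All 4 intervals overlapped between 19.1 and 20.6%, and the intervals cover counting error only. The share was not tested between the genotypes, and the values of Ak4 and its pseudogene are not 2 independent measurements of the genotype difference. With the reads of both loci added up before the fit, the log2 fold change was -4.87 (standard error 0.15).

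Ak3 (ENSMUSG00000024782.7, minus strand, GRCm38 chr19:29020833-29047961) encodes the matrix enzyme that uses GTP to phosphorylate AMP. Its levels were 32.9 and 30.2 CPM in WT against 23.1 and 23.0 CPM in Mek1/2-tKO. Both Mek1/2-tKO libraries lay under both WT libraries. The log2 fold change was -0.45 (standard error 0.13, adjusted p = 0.00769 in edgeR), a 1.37-fold lower level that passed the p threshold and fell short of the fold threshold, so that Ak3 was not called. Its exons share 22.9% of their bases with genes of the opposite strand, Cdc37l1 and 1700018L02Rik. The library kit keeps strand, but the sources do not say whether the counting used it.

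Ak6 (ENSMUSG00000078941.9, plus strand, GRCm38 chr13:100650979-100666359) encodes a small nuclear member of the family. Its levels were 35.8 and 35.3 CPM in WT against 43.1 and 31.4 CPM in Mek1/2-tKO. The Mek1/2-tKO libraries lay on either side of the WT libraries (log2 fold change 0.06, standard error 0.14, adjusted p = 0.733 in edgeR), and the direction turned to -0.18 without Mek1/2-tKO replicate 1. Of the exon bases of Ak6, 59.1% are shared with other genes, mostly with Taf9, a subunit gene of the general transcription factor TFIID on the same strand. Taf9 was listed at 3, 5, 5 and 5 counts, and reads on the shared bases may be counted on either gene or on none.

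Ak7 (plus strand, GRCm38 chr12:105705976-105782447), a gene of the axoneme of cilia and flagella, had 21 and 32 counts in WT and 22 and 12 in Mek1/2-tKO. The genotypes overlapped (log2 fold change -0.43, standard error 0.58, adjusted p = 0.56 in edgeR). Without Mek1/2-tKO replicate 2 the log2 fold change was 0.05. Ak8 (plus strand, GRCm38 chr2:28700164-28813165), also an axonemal gene, had 4 and 0 counts in WT and 2 in each Mek1/2-tKO library, at or near the 3 counts that a count of 0 allows. Of 10 genes of motile cilia, 4 (Dnah5, Tekt1, Spag6l and Hydin) had 0 counts in every library. Of the 4 tested, none was called higher and 2 were called lower. The summed level of the 10 was 50.0 and 53.4 CPM in WT against 34.8 and 47.0 CPM in Mek1/2-tKO. Most of it was Cfap43, at 38.2 and 43.4 CPM in WT against 28.7 and 40.0 CPM in Mek1/2-tKO, which was not called.

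Ak1 (ENSMUSG00000026817.14, plus strand, GRCm38 chr2:32621758-32635058), the cytosolic isoform of muscle and red cells, had 0 counts in both WT libraries and 21 and 10 in the Mek1/2-tKO libraries. It did not pass edgeR's low-count filter and was not tested there. With every gene with a count tested, edgeR gave an adjusted p of 3.06e-04, and DESeq2 gave an adjusted p of 0.00243. All Ak1 reads came from Mek1/2-tKO, so both values rest on few reads of that genotype. Its mean of 0.944 CPM in Mek1/2-tKO was at least 6.07-fold higher than 0.156 CPM, the WT level that 3 counts in a library would give. The Mek1/2-tKO libraries were unlike, at 1.36 and 0.533 CPM, and without Mek1/2-tKO replicate 1 the bound was 3.42-fold. Genes of red cells were higher too, with a summed level of 4.36 and 3.94 CPM in WT against 23.8 and 23.1 CPM in Mek1/2-tKO, 3 of 4 tested genes called higher and no gene at 0 in every library. Their part in the Ak1 counts was not tested.

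Ak9 (plus strand, GRCm38 chr10:41303980-41434534) had 4 counts in Mek1/2-tKO replicate 2 and 0 in the other 3 libraries. Ak5 (minus strand, GRCm38 chr3:152462815-152668360), an isoform of the brain, had 0 counts in all 4 libraries. Of 6 neuronal genes, Rbfox3, Snap25 and Nefl also had 0 counts in every library, and Tubb3, a tubulin gene, was the 1 called higher of 2 tested (log2 fold change 1.44, adjusted p = 0.0113 in edgeR). The summed level of the 6 was 2.41 and 3.16 CPM in WT and 3.49 and 5.86 CPM in Mek1/2-tKO. The limit that a count of 0 leaves is 3 counts, equal to 0.154 to 0.194 CPM in these libraries, for counting error only. For Ak5, Ak8 and Ak9 a difference between the genotypes was not detectable at this depth.

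Of the 9 members, 5 passed the low-count filter, namely Ak3, Ak4, Ak6, Ak7 and Ak3l2-ps. Ak4 and Ak3l2-ps lay past the thresholds used for all genes on the lower side, where 16.4% of all tested genes were called lower and 19.3% higher. The family was selected on this contrast, so that this is a description and no test, and nothing is read from the count. Ak3, Ak6 and Ak7 were not called.

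**Figure D2:**
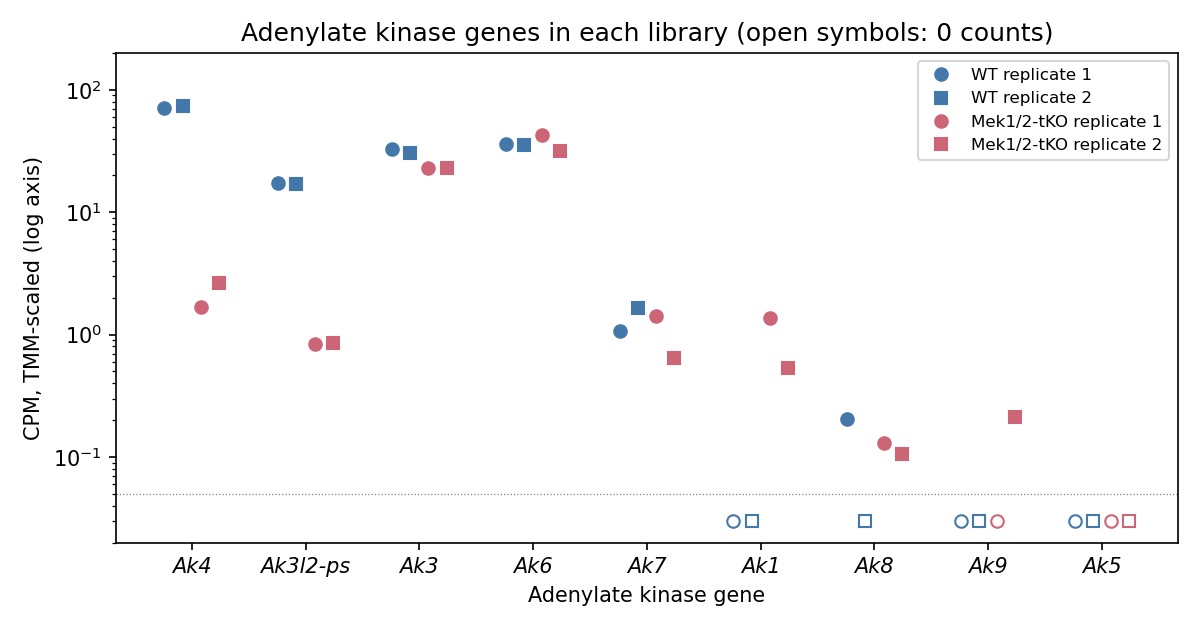
Each point is the level of an adenylate kinase gene in a library, in TMM-scaled CPM on a log axis, with WT in blue, Mek1/2-tKO in red, circles for replicate 1 and squares for replicate 2. Open symbols under the dotted line mark 0 counts. Ak4 and Ak3l2-ps are the members with a wide gap between the genotypes, from 71.2 or more down to 2.66 or less CPM for Ak4.

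Levels of different genes were compared per length, in RPKM (CPM divided by the exon length in kilobases). In WT, Ak4 had 15.3 and 15.9 RPKM, Ak6 12.9 and 12.8 RPKM and Ak3 10.5 and 9.69 RPKM. These 3 ranges did not overlap, so that Ak4 stood above Ak6 and Ak6 above Ak3 in WT. With all Ak6 reads divided by its unshared exon bases alone, however, Ak6 came to 31.6 and 31.2 RPKM, above Ak4. These are upper limits, since reads on the shared bases may be among the Ak6 reads and were not counted apart. Ak3l2-ps, a short gene, had 25.7 and 25.3 RPKM in WT, and Ak7 had 0.256 and 0.394 RPKM. In Mek1/2-tKO, Ak4 had 0.361 and 0.573 RPKM, under Ak3 at 7.41 and 7.37 RPKM and Ak6 at 15.6 and 11.3 RPKM. There the range of Ak4 overlapped that of Ak1, which was 0.523 and 0.205 RPKM, and lay above that of Ak7, at 0.338 and 0.152 RPKM, by less than the spread within either gene. The mean RPKM of Ak4 exceeded that of 73.0% of the tested genes in WT and of 11.1% in Mek1/2-tKO.

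Summed over the members without the pseudogene, the level came to 39.2 and 38.8 RPKM in WT and 24.3 and 19.7 RPKM in Mek1/2-tKO. Ak4 made up 39.2 and 41.1% of this sum in WT and 1.49 and 2.91% in Mek1/2-tKO. Ak6 made up 33.0 and 32.9% in WT and 64.1 and 57.4% in Mek1/2-tKO, and Ak3 made up 26.9 and 25.0% against 30.5 and 37.4%. The sum includes Ak4, on which the family was chosen, and a lower Ak4 by itself lowers the sum and raises the other shares. The larger shares are thus no rise in level. Ak6 was not called, and Ak3 had 10.5 and 9.69 RPKM in WT against 7.41 and 7.37 RPKM in Mek1/2-tKO. In both WT libraries the share of Ak4 was above that of Ak6 only with the full exon length of Ak6, of which 59.1% is shared with other genes. The other scaling, added after the data were seen, divided all Ak6 reads by its unshared exon bases, an upper limit for Ak6. With it, Ak6 made up 54.6 and 54.5% in WT and Ak4 made up 26.5 and 27.8%. In Mek1/2-tKO, Ak4 made up 0.773 and 1.59%. On both scalings the share of Ak4 was higher in both WT libraries than in both Mek1/2-tKO libraries. These are shares among the members and not of all adenylate kinase RNA in the cells.

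**Figure D3:**
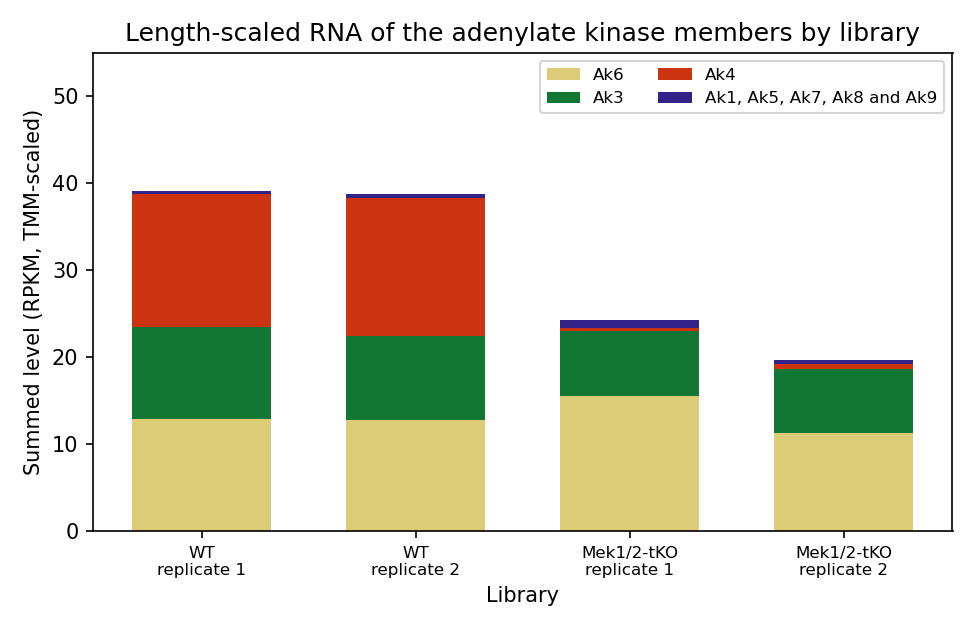
Stacked bars give the summed level of the members other than the pseudogene in each library in RPKM, from 0, with colours for Ak6, Ak3 and Ak4 and the 5 least abundant members together. The red Ak4 segment takes 39.2 and 41.1% of the bar in WT and 1.49 and 2.91% in Mek1/2-tKO, and the bars reach 39.2 and 38.8 RPKM in WT and 24.3 and 19.7 RPKM in Mek1/2-tKO. Ak6 is drawn at its full exon length. With all its reads divided by its unshared exon bases, an upper limit, it would be the largest segment in every library.

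The other genes of adenine nucleotide handling were read from lists, beside 19.3% of all tested genes called higher, 16.4% called lower and a median log2 fold change of 0.02 over all tested genes. Among 10 tested nucleotide and phosphagen kinases outside the members, 1 was called higher and 1 lower, with a median log2 fold change of 0.21. Cmpk2, a mitochondrial UMP-CMP kinase induced by interferons, had 5.18 and 7.16 CPM in WT against 17.8 and 16.5 CPM in Mek1/2-tKO (log2 fold change 1.47, standard error 0.20, adjusted p = 3.53e-05 in edgeR). Ckb, the brain-type creatine kinase, had 36.1 and 40.0 CPM in WT against 9.17 and 9.96 CPM in Mek1/2-tKO (log2 fold change -1.99, standard error 0.14, adjusted p = 8.17e-08 in edgeR). In both genes the genotypes did not overlap.

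Of 19 tested genes of adenine nucleotide synthesis, salvage and breakdown, 3 were called higher and 2 lower, with a median log2 fold change of 0.04. Pnp, a purine nucleoside phosphorylase of salvage and breakdown, rose (log2 fold change 0.72, adjusted p = 0.00143 in edgeR). Ampd2, an AMP deaminase, fell from 77.2 ± 6.93 to 43.2 ± 4.32 CPM (SD, n = 2 each, log2 fold change -0.84, adjusted p = 2.63e-05 in edgeR), and Impdh1, which leads IMP toward guanine nucleotides, also fell (log2 fold change -0.66, adjusted p = 6.30e-05 in edgeR). Adk, the adenosine kinase, had a log2 fold change of -0.37 (adjusted p = 0.0173 in edgeR), short of the fold threshold. The other called genes, named after their values were seen, were Adssl1 of AMP synthesis (log2 fold change 1.20) and Nt5e (0.98), which encodes the surface enzyme CD73 that turns AMP into adenosine.

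The genes of AMP-activated protein kinase (AMPK), the kinase that senses AMP, and of its activators gave 3 lower and 0 higher calls among 12 tested genes by edgeR (0 higher at an unadjusted p under 0.05 and 0 with DESeq2), with a median log2 fold change of -0.10. The 3 were the γ subunit gene Prkag2 (log2 fold change -0.75, adjusted p = 5.57e-04 in edgeR), the upstream kinase Camkk2 (-0.67, adjusted p = 0.00254) and Cab39, a partner of the upstream kinase LKB1 (-0.65, adjusted p = 5.90e-06). The catalytic subunit gene Prkaa1 had 39.8 and 37.8 CPM in WT against 37.2 and 32.9 CPM in Mek1/2-tKO and was not called (log2 fold change -0.15, adjusted p = 0.30 in edgeR). Of 10 tested genes listed for mitochondrial adenine nucleotide transport, 2 were called lower and 0 higher by edgeR (1 higher at an unadjusted p under 0.05 and 0 with DESeq2). The median log2 fold change was -0.29. The list also holds Slc25a17, a peroxisomal carrier that was not called (log2 fold change 0.10). Vdac1, a channel of the outer mitochondrial membrane, fell from 424.2 ± 0.885 to 254 ± 3.46 CPM (SD, n = 2 each, log2 fold change -0.74, adjusted p = 1.53e-06 in edgeR), and Slc25a23, an ATP-Mg carrier named after its values were seen, had a log2 fold change of -0.89 (adjusted p = 0.0436 in edgeR). The list's count moved to 1 with DESeq2 and to between 1 and 4 when a library was left out. Slc25a5, the abundant ADP/ATP carrier of T cells, was not called (log2 fold change 0.17, adjusted p = 0.15 in edgeR).

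Because Ak4 is a HIF-1 target, 36 textbook targets were read beside it. Of the 35 tested, 30 were called lower (85.7%, beside 16.4% of all tested genes), 1 was called higher and 4 were not called, and the median log2 fold change was -1.40. The list was drawn up with the fall of Ak4 known and is no independent evidence of its direction. Slc16a3, the lactate exporter, had 341 and 357 CPM in WT against 24.5 and 24.4 CPM in Mek1/2-tKO (log2 fold change -3.83, standard error 0.09, adjusted p = 1.50e-12 in edgeR). Egln3, a prolyl hydroxylase that marks HIF for breakdown, had 161 and 169 CPM against 11.6 and 12.2 CPM (log2 fold change -3.79, standard error 0.11, adjusted p = 8.28e-12 in edgeR). Vegfa, the endothelial growth factor, had 58.9 and 56.4 CPM against 6.01 and 7.14 CPM (log2 fold change -3.12, standard error 0.14, adjusted p = 8.28e-10 in edgeR). In all 3 genes both Mek1/2-tKO libraries lay far under both WT libraries.

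The called targets covered glucose uptake (Slc2a1 and Slc2a3), glycolysis from Hk1 and Hk2 to Ldha, the block of pyruvate entry into mitochondria (Pdk1, log2 fold change -2.12), and removal of mitochondria (Bnip3, -3.09, and Bnip3l, -1.25). The glycolytic genes Ldha (-0.91), Eno1 (-0.87) and Aldoa (-0.84) were among the targets called lower. Anxa2, a membrane-binding annexin, was the target called higher (log2 fold change 0.75, adjusted p = 6.85e-06 in edgeR), and Pfkfb3, Pfkfb4, Adm and Higd1a were not called. Of 7 tested regulators of the pathway, 4 were called lower and 1 higher, with a median of -0.64. Hif1a, the regulated subunit of HIF-1, had 223 and 205 CPM in WT against 84.6 and 81.6 CPM in Mek1/2-tKO (log2 fold change -1.37, standard error 0.08, adjusted p = 1.70e-08 in edgeR). Its partner Arnt was also called lower (-0.64, adjusted p = 3.44e-04 in edgeR), and Egln2, a prolyl hydroxylase, was called higher (0.79, adjusted p = 9.59e-06 in edgeR). The other lower calls, named after their values were seen, were Epas1 and Hif3a, with 6 counts or fewer in each Mek1/2-tKO library.

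**Figure D4:**
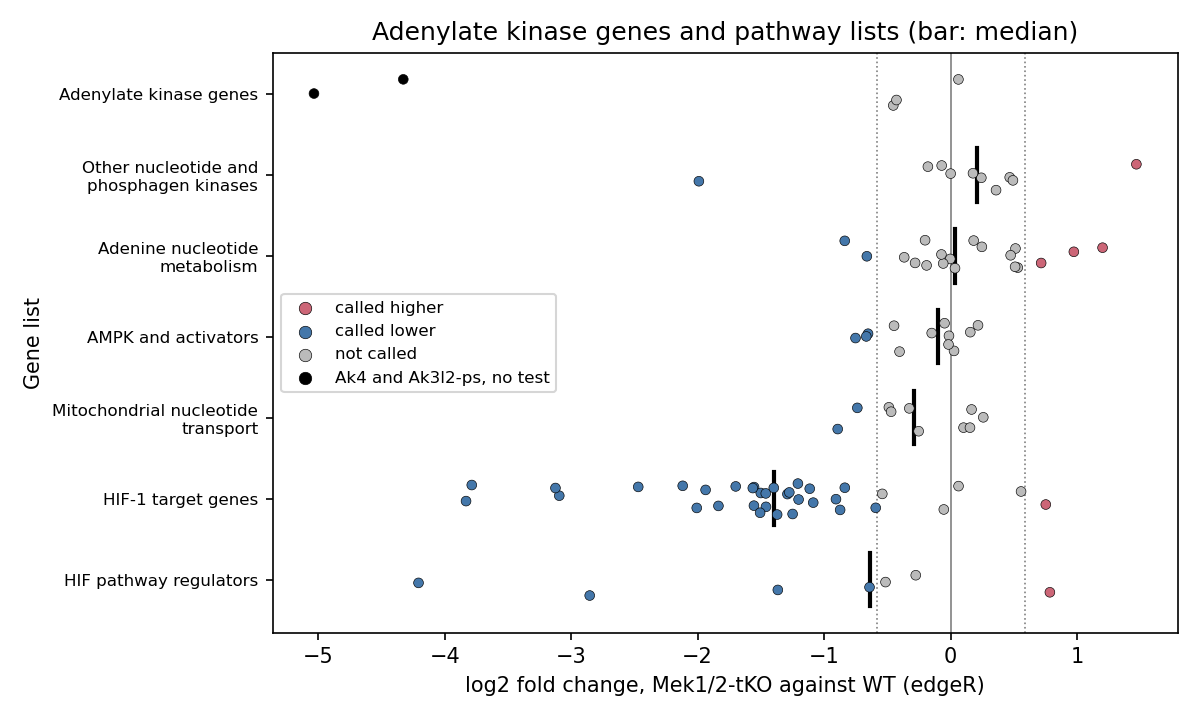
Each point is the log2 fold change (Mek1/2-tKO against WT, edgeR) of a tested gene, with called genes in red (higher) or blue (lower), others in grey, Ak4 and Ak3l2-ps in black as the genes behind the choice of the family, and dotted lines at a 1.5-fold change. Black bars mark the median of each pathway list, and the HIF-1 targets lie furthest to the left with 30 of 35 called lower, while the medians are -0.64 for the HIF regulators and between -0.29 and 0.21 for the other lists.

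The 5′ flank of Ak4 was searched for the core of the HIF-1 binding motif, ACGTG or GCGTG, on both strands (CACGT or CACGC on the other). RefSeq promoter windows of GRCm38.p6, of 300 bases each, were matched for 7 of the 9 members, all but Ak5 and Ak3l2-ps. Of all 32851 windows, 43.8% held at least 1 of these letters, so that a match is common. All 4 overlapping or neighbouring Ak4 windows held at least 1, as did the windows of Ak6, Ak7 and Ak9 and 3 of 4 windows of Ak1, whereas those of Ak3 and Ak8 held none. The 250 bases before an Ak4 start at base 101419289 are shown with the matches in capitals, on the plus strand.
Ak4 5′ flank, chr4:101419039-101419288: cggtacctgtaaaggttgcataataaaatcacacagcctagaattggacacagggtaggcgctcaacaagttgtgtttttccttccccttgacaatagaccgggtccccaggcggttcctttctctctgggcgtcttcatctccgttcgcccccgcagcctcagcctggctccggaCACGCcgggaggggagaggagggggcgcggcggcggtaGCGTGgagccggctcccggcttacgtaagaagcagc

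The matches begin 74 and 36 bases before that start. They are matching letters and not measured binding sites, and Ak6, which was not called, had 5 matches in its window.

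The genes around both loci were read to see whether they moved together. Of 13 genes within 200 kb of Ak4, 3 were tested. Jak1, a cytokine receptor kinase (log2 fold change -0.16, adjusted p = 0.0887 in edgeR), and Leprot (0.26, adjusted p = 0.0727) were not called. The unnamed transcript E130102H24Rik, 62.5 kb before Ak4, had 4 and 11 counts in WT and 57 and 81 in Mek1/2-tKO and was called higher (log2 fold change 3.35, standard error 0.52, adjusted p = 1.04e-04 in edgeR). Of 7 genes within 200 kb of Ak3l2-ps, 2 were tested and both were called lower, beside 16.4% of all tested genes. The log2 fold change was -2.32 for the stress kinase Map3k20 (adjusted p = 2.36e-06 in edgeR) and -0.85 for the cell-cycle gene Cdca7 (adjusted p = 3.45e-06). With 2 tested genes, nothing is read from this count. No tested neighbour of Ak4 was called lower.

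The genes whose pattern over the 4 libraries was closest to that of Ak4 were found among 9602 candidates by the Euclidean distance between centred log2 CPM values. They were Tgm2, a transglutaminase, at a distance of 0.867, the galectin Lgals7 at 1.16, Ptgfrn at 1.26, the lactate exporter Slc16a3 at 1.29 and the co-receptor gene Cd4 at 1.29. With 4 libraries in 2 genotypes, this distance mostly ranks genes by how far they fell, and the distances carry no test.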

How the data were processed

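RNA from the 4 polarized cultures was sequenced from a stranded mRNA kit as read pairs of 150 nucleotides. The authors trimmed the reads with Trimmomatic 0.36, mapped them to GRCm38 and deposited raw counts of uniquely mapped reads per gene from featureCounts (Subread 1.5.1), without normalization. The deposited counts were fitted on genotype in R 4.3.3 with edgeR 4.0.16, using TMM factors, the filterByExpr filter, the robust quasi-likelihood test and Benjamini-Hochberg adjustment over 14330 tested genes. The code of the fit was run on simulated counts with far fewer changed genes and a common dispersion for all genes. That run does not test the fit at the spread seen in these libraries. RPKM used the exon lengths in the files. Alternatives were added pseudogene reads, TPM, a replicate block, DESeq2 1.42.0, its size factors in edgeR, scaling by library size only, testing every gene with a count, a minimum of 10 counts per library, and leaving out each library. Loci and sequences came from GENCODE M21 on GRCm38 and from RefSeq promoters.

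The members and lists were chosen with earlier results of these data known. The genes given by name were the members, the targeted genes, overlapping and tested neighbouring genes, the 5 nearest patterns and in each list up to 3 called genes per direction that changed most among those averaging 3 or more on the log2 CPM scale, together with Hif1a, Prkaa1, Adk and Slc25a5. Other genes were named after their values were seen. One gene of the kinase list was left out and is not reported here. Of 202 list genes, 200 were matched by symbol, all but Trgc1 and Trgc2. For Aldoa, which has several identifiers, the one with the most counts was used. Replicates differed by more than sampling noise (chi-square per gene 4.19 in WT and 10.9 in Mek1/2-tKO).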

Additional observations from a re-analysis of the deposited data

How the results depend on the processing

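Over DESeq2, DESeq2's size factors, library size alone, both other filters, the replicate block and the added pseudogene reads, the log2 fold change of Ak4 lay between -5.12 and -4.87, and leaving out each library in turn gave -5.44 to -4.76. The most negative value came without Mek1/2-tKO replicate 2. That of Ak3l2-ps was -4.34 with DESeq2, -4.41 with library size alone, -4.31 with at least 10 counts in every library and -4.35 to -4.32 without each library. The log2 ratio of the mean Ak4 level per length was -5.06 in RPKM and -5.46 in TPM, a scale on which the median gene shifted by -0.41 and Ak6 was 25.1 and 24.6 TPM in WT and 21.3 and 17.4 TPM in Mek1/2-tKO. The cause of that shift was not tested. An alternative added after the data were seen divided all Ak6 reads by its unshared exon bases, an upper limit for Ak6. With it, the mean share of Ak4 in the members' WT level was 27.2% in place of 40.1%. Ak6 turned from 0.06 to -0.026 with library size alone and ranged from -0.18 without Mek1/2-tKO replicate 1 to 0.27 without replicate 2, and Ak7 turned from -0.43 to 0.047 without Mek1/2-tKO replicate 2 and was -1.09 without replicate 1. Ak3 stayed between -0.54 and -0.39 in all these fits, short of the fold threshold. In TPM, Ak3 was 20.5 and 18.7 in WT and 10.2 and 11.3 in Mek1/2-tKO, farther apart than in RPKM. No fit was run on TPM. Without each library, the lower calls ranged from 2119 to 2627 over all genes and 29 to 30 among HIF-1 targets. The other kinases gave 1 to 2 higher calls, adenine nucleotide metabolism 2 to 5 higher and 1 to 2 lower, and mitochondrial transport 1 to 4 lower. Among HIF regulators 2 were called lower with at least 10 counts in every library. Libraries of the same number did not deviate together (correlation -0.03 across genes). With 2 libraries per genotype, this value cannot settle whether the numbers mark pairs. With a replicate block, 2652 genes were called higher and 2300 lower, mitochondrial transport had 1 lower call, as with DESeq2, and Ak4 was at -5.05. With 26 and 50 Ak4 reads in Mek1/2-tKO, counting error limits the ratio of Ak4 to its pseudogene.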
